A study of Oryza sativa Japonica Group with 4 samples.

Results

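Polycomb repressive complex 2 (PRC2) is a chromatin complex that keeps genes silent by methylating a lysine of histone H3. In plants it is built from a WD repeat protein of the FIE type, a SET domain protein that carries the methyltransferase activity, a zinc finger protein of the EMF2 type and a histone-binding WD repeat protein. The complex restrains endosperm proliferation and represses MADS-box genes in young seeds. Rice has a pair of FIE genes. FIE1 is transcribed mainly in the endosperm and is imprinted, so that the maternal copy is the active one, whereas FIE2 is transcribed in many tissues. FIE1 has also been studied for its response to heat in young rice seeds.

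To examine these genes in heated endosperm, all transcript models of 6 PRC2 genes were read from the deposited table by gene ID. The genes are FIE1 (LOC_Os08g04290), FIE2 (LOC_Os08g04270), the SET domain genes CLF (LOC_Os06g16390) and iEZ1 (LOC_Os03g19480), and EMF2a (LOC_Os04g08034) and EMF2b (LOC_Os09g13630). They have 13 transcript models, of 67393 models and 56797 genes in the table, and all 13 passed the filter on low counts. The table describes both FIE genes as WD domain proteins, CLF and iEZ1 as SET domain proteins, and both EMF2 genes as C2H2 zinc finger proteins. FIE1, CLF, iEZ1 and EMF2b have 1 model each, FIE2 has 3 and EMF2a has 6.

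Endosperm of the japonica rice cultivar Nipponbare was sequenced in 4 poly(A) RNA libraries, 2 per temperature. Plants of both groups grew at 28°C by day and 22°C by night until 5 days after pollination. They then stayed at that temperature (control) or moved to 35°C by day and 28°C by night (high temperature), with days and nights of 12 h, and seeds were sampled 5 days later. The labels do not say whether replicates came from separate plants, so the p-values measure only the spread between these libraries, which may be technical.

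The libraries held 6395533 to 11492692 reads, with the most in control replicate 1. That library stands apart in how its column was made. Its column of the table has no NA cell, against 26717 to 29117 in the other columns, and its deposited RPKM values were multiplied by the length, unlike those of the other columns. The sources used here do not say whether its reads were counted in the same way. The 2 most abundant transcripts took 8.51% of the reads in control replicate 1 and 10.05% in high temperature replicate 2, against 25.9% in control replicate 2 and 35.2% in high temperature replicate 1. The chi-square per degree of freedom of the counts was 68.5 between the controls and 58.0 between the heated libraries. Across the temperatures it was lowest for control replicate 1 with high temperature replicate 2 (17.7) and for control replicate 2 with high temperature replicate 1 (24.4), and it was 46.0 between the libraries numbered 2 and 97.7, the highest of the 6 pairs, between those numbered 1. The glutelin and prolamin transcripts, the storage proteins of rice endosperm, took 236358 to 403425 CPM (counts scaled to the same total in each library) in each library, and none of the 46 was at 0. The summed level of 41 oleosin and late embryogenesis abundant transcripts, markers of embryo and aleurone, was 1114 TMM CPM in control replicate 1 and 1539 to 2944 in the other libraries. Of these 41, 5 or 6 were at 0 in each library. The 27 chlorophyll A-B binding transcripts, markers of green pericarp, summed to 839 to 1719 TMM CPM and none was at 0. TMM CPM are CPM after scaling between libraries by the TMM method. Below, the values of a group are given with replicate 1 first. In bulk tissue, fewer cells of a type and less RNA per cell cannot be told apart.

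To compare the genes with each other, reads were divided by the length of the model and by the total of the library (RPKM), and each gene was represented by its model with the highest mean count. By these models CLF, a SET domain methyltransferase, had the highest level in every library. Its RPKM was 15.7 and 9.28 in the controls and 12.0 and 21.0 at high temperature. EMF2b, a zinc finger subunit, came next by its mean, with 13.9 and 8.93 RPKM in the controls and 9.22 and 15.5 at high temperature. CLF exceeded EMF2b in 4 of 4 libraries, by a ratio of 1.04 to 1.35, although the ranges of these neighbours overlapped. The mean RPKM of CLF was higher than that of 88.5% of the transcripts tested, and that of EMF2b higher than 85.6%.

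iEZ1, the other SET domain gene, was the steadiest of the 6 on this scale, with 8.76 and 6.91 RPKM in the controls and 6.87 and 7.36 at high temperature. Its range lay below that of EMF2b. FIE2 had 9.91 and 3.52 RPKM in the controls and 3.95 and 5.72 at high temperature, and lay below iEZ1 in 3 of 4 libraries, the exception being control replicate 1. EMF2a had 4.19 and 1.93 RPKM in the controls and 1.90 and 2.32 at high temperature. FIE1 had 15.1 and 1.85 RPKM in the controls and 1.24 and 2.15 at high temperature. By these models it therefore ranked second of the 6 in control replicate 1 and last in each of the other 3 libraries, where EMF2a lay above it.

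**Figure D1:**
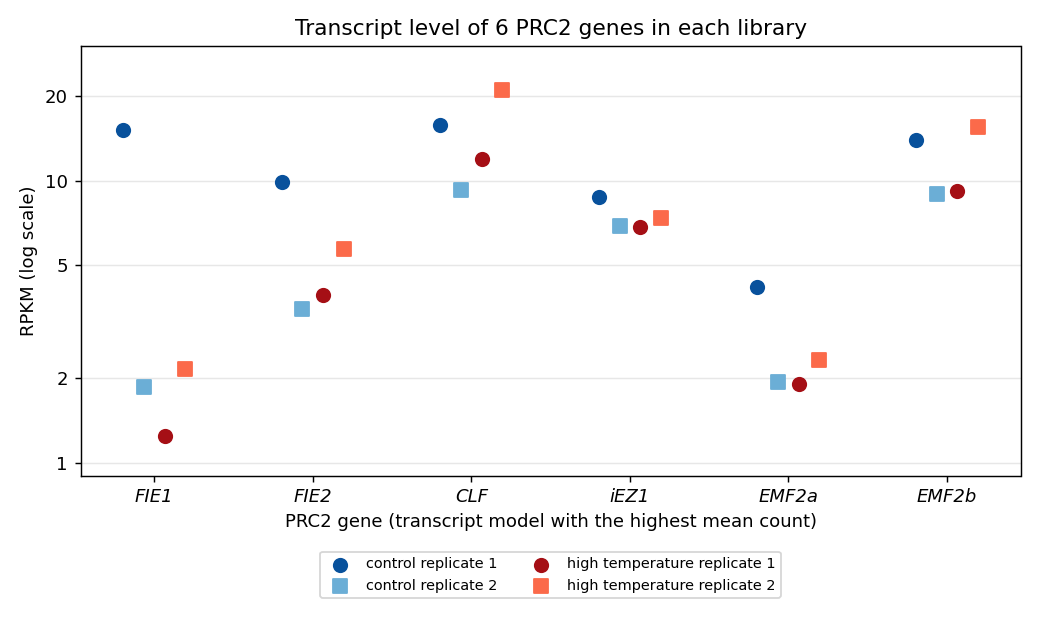
RPKM (log scale) of the 6 PRC2 genes, 1 point per library, blue for control and red for high temperature. FIE1 stands at 15.1 in control replicate 1 and at 1.24 to 2.15 in the other 3 libraries. Each gene is shown by its model with the highest mean count, and by these models CLF is the highest in each library.

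These levels depend on how the models of a gene are counted. When the reads of all models were summed over the length of the longest, the mean of FIE2 was 15.9 RPKM in place of 5.77, and that of EMF2a was 10.4 in place of 2.58. FIE2 then lay above CLF in control replicate 1 (25.7 against 15.7 RPKM) and narrowly in high temperature replicate 1 (12.00 against 11.95). It lay below CLF in control replicate 2 (9.25 against 9.28) and in high temperature replicate 2 (16.7 against 21.0). In control replicate 1, EMF2a (17.6) also lay above CLF, and FIE1 (15.1) lay below FIE2, EMF2a and CLF. Models of a gene can share exons, and it is not stated in the sources used here how reads of shared exons were assigned, so the true level of these genes relative to those with 1 model is uncertain.

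FIE1, the endosperm WD repeat subunit, differed more between the control libraries than between the temperatures. It held 304 and 26 reads in the controls, and 17 and 24 reads at high temperature. As shares of the library these are 26.5 CPM (Clopper-Pearson 95% interval 23.6 to 29.6), 3.24 (2.12 to 4.75), 2.18 (1.27 to 3.48) and 3.75 (2.40 to 5.58). The intervals cover counting error only. The interval of control replicate 1 lay far above the other 3, and those 3 overlapped each other. Whether the way its column was made, or the composition of the library, bears on the FIE1 level of control replicate 1 was not tested.

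On the TMM scale, FIE1 had 20.1 and 4.30 CPM in the controls and 2.45 and 3.35 CPM at high temperature, so that both high temperature libraries lay below both controls. Without that scaling, high temperature replicate 2 (3.75 CPM) lay above control replicate 2 (3.24), and the groups overlapped. The group means were 12.2 ± 11.2 TMM CPM (SD, n = 2) for control and 2.90 ± 0.635 (SD, n = 2) for high temperature. The log2 fold change at high temperature was -2.11 (standard error 0.65), and 34 of the 27358 transcripts tested (0.124%) had one as low. This difference did not pass the threshold, with an unadjusted p of 0.0118 and a Benjamini-Hochberg adjusted p of 0.597 in edgeR's quasi-likelihood test. At the same threshold 0 transcripts passed (0.0%), 1900 (6.94%) had an unadjusted p under 0.05, and DESeq2 called 58 (0.212%).

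The size of the FIE1 difference rested on the control libraries, and its call on the processing. Without control replicate 1, the log2 fold change was -0.57 (standard error 0.52, adjusted p = 0.8995, edgeR), in a fit that called 42 transcripts (0.163%). Without control replicate 2 it was -2.79 (standard error 0.38) with an adjusted p of 8.17e-05 (edgeR), in a fit that called 345 transcripts (1.28%). Without the filter on low counts the adjusted p of FIE1 was 2.71e-05 (edgeR), where 365 of 44411 transcripts (0.822%) passed, and it was 0.308 with DESeq2. A block that pairs the libraries across replicate numbers, added after the data were seen, gave FIE1 an adjusted p of 0.000265 (edgeR) and called 828 transcripts (3.03%). It joins the libraries that were most alike across the temperatures in these same counts (chi-square per degree of freedom 17.7 and 24.4). Its p-values and calls are therefore no separate evidence. FIE1 was below 0 on the log2 scale in each of the 13 alternative fits that tested it. In those that kept every library, its adjusted p-values ran from 2.71e-05 to 0.99994 (edgeR and DESeq2).

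**Figure D2:**
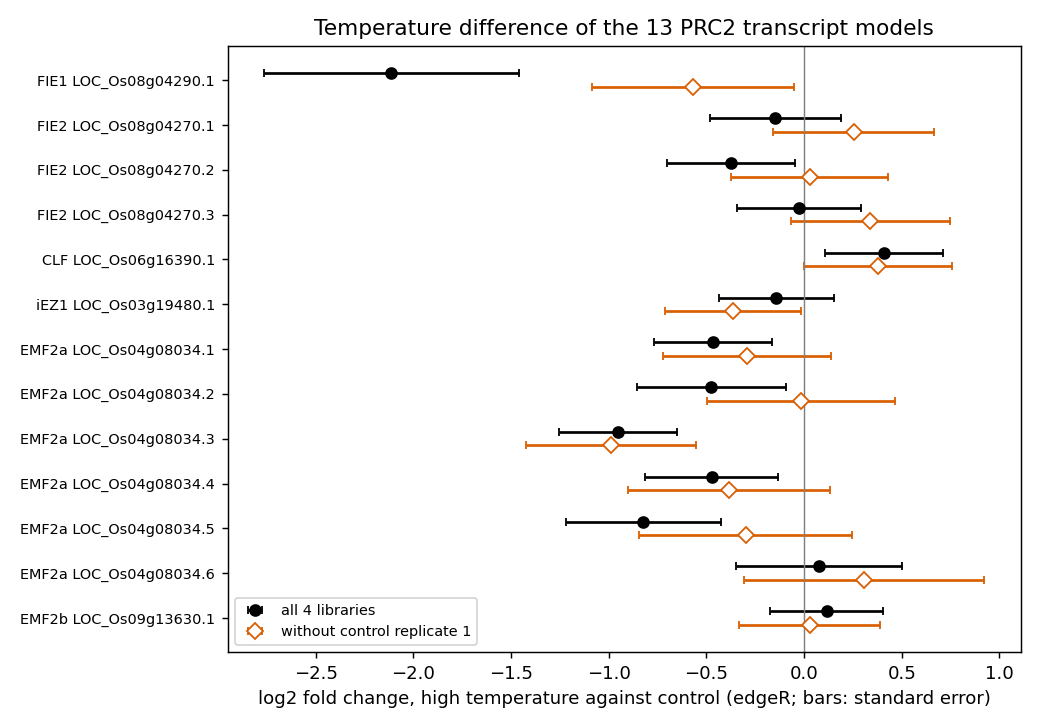
Log2 fold change (high temperature against control, edgeR) of the 13 PRC2 transcript models, with standard errors, in the fit of all 4 libraries (black) and without control replicate 1 (orange). FIE1 moves from -2.11 to -0.57 when that library is left out, whereas the EMF2a model LOC_Os04g08034.3 is at -0.95 and -0.99.

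The height of FIE1 in control replicate 1 was among the most extreme in the table. Its level there was 4.68 times that of the next library on the TMM scale. Of the 27358 tested transcripts, 2 (0.00731%), FIE1 being 1 of them, reached a ratio this large. The other was LOC_Os03g55740.1, a 2S albumin seed storage protein, with 157.5 TMM CPM in control replicate 1 and 12.7 to 30.7 in the other libraries. By column totals FIE1 had a ratio of 7.05, and no other transcript reached it (1 of 27358, 0.00366%). That library was the highest of the 4 for 8 of the 13 PRC2 models and for 25.5% of all tested transcripts on the TMM scale, and for 11 of the 13 and 56.6% of all by column totals.

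**Figure D3:**
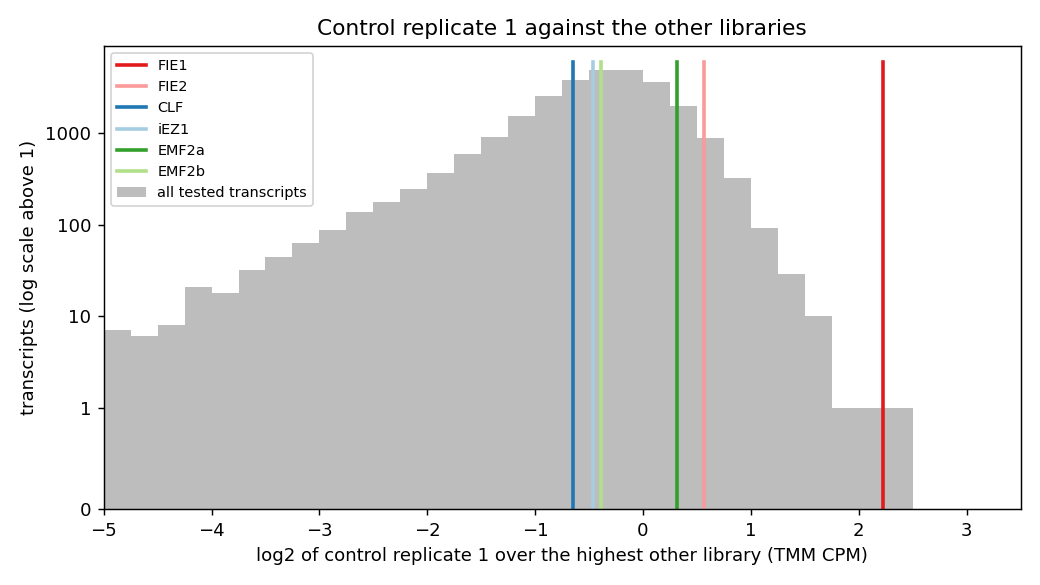
Distribution over the tested transcripts of the log2 ratio of control replicate 1 to the highest other library (TMM CPM, axis shown from -5; counts on a log scale above 1), with lines for the 6 PRC2 genes. FIE1 lies at 2.23, at the right edge of the distribution. FIE2 lies between 0.5 and 0.75, on the upper side of the median of -0.34. CLF, iEZ1, EMF2a and EMF2b lie closer to that median.

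Genes next to FIE1 by locus number did not share this pattern on the TMM scale. These genes were chosen after their values were seen. LOC_Os08g04280, described as an actin, carries the number between FIE2 and FIE1, and its model LOC_Os08g04280.1 had 8.74 and 11.6 TMM CPM in the controls and 8.22 and 10.9 at high temperature. LOC_Os08g04300.1, a fringe-related protein with the next number after FIE1, had 2.91 and 4.63 TMM CPM in the controls and 6.35 and 4.47 at high temperature. In both, control replicate 1 was below control replicate 2 on that scale. By column totals it was above control replicate 2 in both, with 132 and 70 reads for LOC_Os08g04280.1 and 44 and 28 for LOC_Os08g04300.1. The reads were reported as uniquely mapped, so reads that fit both FIE1 and FIE2 would be missing from the counts, and how many there were is not known.

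The transcripts whose profile over the 4 libraries was most like that of FIE1 were found by the root mean square difference in centred log2(TMM CPM + 1), among 14016 transcripts of other genes with a mean of at least 5 CPM. The nearest was LOC_Os04g33600.1, an alpha/beta fold hydrolase, at a difference of 0.154 against a median of 1.05 over all those compared. It had 54.4 and 16.4 TMM CPM in the controls and 7.64 and 12.0 at high temperature. The next were LOC_Os01g64640.1, a histone H3 gene (0.301), LOC_Os08g16860.1, an F-box protein (0.347), LOC_Os01g67100.1, described only as an expressed protein (0.352), and LOC_Os09g29810.1, a retrotransposon protein (0.355). All 5 were highest in control replicate 1, by 2.37 to 3.32 times the next library. Likeness over 4 libraries, of which 1 stands apart, is a description of these libraries.

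**Figure D4:**
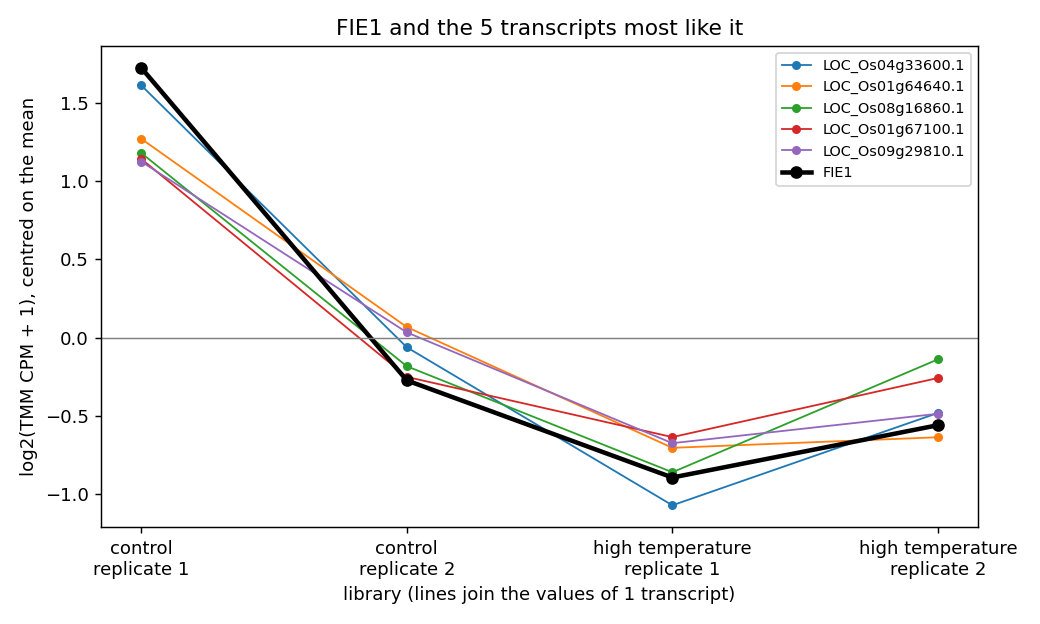
Centred log2(TMM CPM + 1) of FIE1 (black) and of the 5 transcripts most like it, by library. Each line is highest in control replicate 1 and lowest in high temperature replicate 1.

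FIE2, the broadly transcribed WD repeat paralog, showed a weaker form of the same difference between the controls. Its most abundant model, LOC_Os08g04270.2, had 14.4 and 8.94 TMM CPM in the controls and 8.51 and 9.77 at high temperature, so the groups overlapped. The log2 fold changes of LOC_Os08g04270.1, LOC_Os08g04270.2 and LOC_Os08g04270.3 were -0.15, -0.37 and -0.03, with standard errors of 0.34, 0.33 and 0.32 and adjusted p-values of 0.961, 0.879 and 0.994 (edgeR). Without control replicate 1 they were 0.26, 0.03 and 0.34, so no direction can be given for FIE2. The 3 models divided the reads of the gene almost evenly, each with 30.7% to 38.0% of them in every library.

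Because a ratio within a library does not depend on scaling between libraries, the paralogs of each subunit were also compared directly. The ratio of FIE1 to FIE2 in RPKM was 1.53 and 0.527 in the controls and 0.315 and 0.375 at high temperature. FIE1 thus made up 60.4% and 34.5% of the FIE pair in the controls and 24.0% and 27.3% at high temperature, and both heated libraries lay below both controls. The log2 ratio was -0.16 ± 1.08 (SD, n = 2) in control and -1.54 ± 0.177 (SD, n = 2) at high temperature, a difference of -1.38 (exact permutation test, two-sided, p = 0.333, the smallest p that 2 against 2 libraries allow). The controls differed from each other by 1.53 on this scale, about as much as the group means did. With FIE2 reads summed over its models, the groups differed by -1.57 and the controls by 1.55, and FIE1 made up 37.0% and 16.7% in the controls and 9.40% and 11.4% at high temperature.

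**Figure D5:**
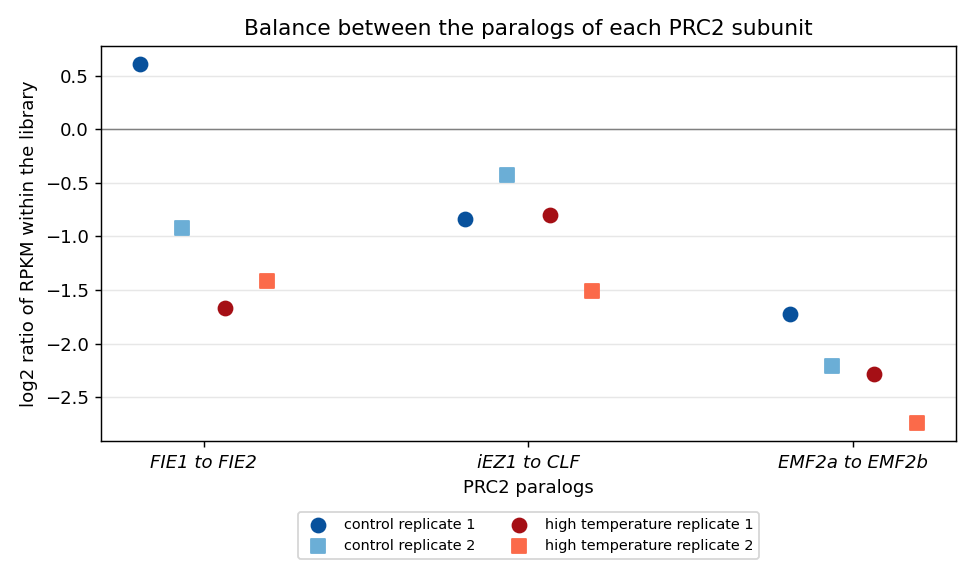
Log2 ratio of RPKM between the paralogs of each PRC2 subunit within each library. The FIE1 to FIE2 ratio is 0.61 in control replicate 1 and -1.66 to -0.92 in the other libraries, and EMF2a is below EMF2b in each library.

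The SET domain genes encode the catalytic subunit. CLF had 39.1 and 40.4 TMM CPM in the controls and 44.1 and 61.3 at high temperature, so both heated libraries were above both controls, as for 19.1% of all tested transcripts. Its log2 fold change was 0.41 with a standard error of 0.30, did not pass the threshold (adjusted p = 0.846, edgeR) and was 0.13 without high temperature replicate 2. By column totals the groups of CLF overlapped. iEZ1 had 22.3 and 30.6 TMM CPM in the controls and 25.8 and 21.9 at high temperature, which overlapped. Its log2 fold change was -0.14 with a standard error of 0.29 and an adjusted p of 0.960 (edgeR). The log2 ratio of iEZ1 to CLF was -0.84 and -0.43 in the controls and -0.80 and -1.51 at high temperature, a difference of -0.52 (exact permutation test, two-sided, p = 0.667). CLF was thus the more abundant of the 2 in all 4 libraries.

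Of the zinc finger subunits, EMF2b had similar values at high temperature on the TMM scale. There 5 of the 6 models of EMF2a had lower mean values, and no difference passed the threshold. EMF2b had 25.2 and 28.3 TMM CPM in the controls and 24.8 and 33.1 at high temperature, which overlapped. Its log2 fold change was 0.12 with a standard error of 0.29 and an adjusted p of 0.964 (edgeR). Of the 6 models of EMF2a, 5 had a log2 fold change below 0, from -0.95 to -0.46, and LOC_Os04g08034.6, the least abundant, was at 0.08. The most abundant, LOC_Os04g08034.1, had 9.27 and 7.45 TMM CPM in the controls and 6.20 and 6.003 at high temperature, with a log2 fold change of -0.46 (adjusted p = 0.826, edgeR). LOC_Os04g08034.2, LOC_Os04g08034.4 and LOC_Os04g08034.5 were at -0.47, -0.47 and -0.82, with standard errors of 0.38, 0.34 and 0.40 and adjusted p-values of 0.861, 0.844 and 0.743 (edgeR). The groups of LOC_Os04g08034.1, LOC_Os04g08034.4 and LOC_Os04g08034.5 did not overlap on the TMM scale and overlapped by column totals. Without control replicate 1 the log2 fold change of LOC_Os04g08034.2 was -0.014 and that of LOC_Os04g08034.5 was -0.30. Summed over its models, EMF2a had 38.9 and 30.1 TMM CPM in the controls and 22.2 and 24.7 at high temperature. Both heated libraries were thus below both controls, as for 17.7% of all tested transcripts. By column totals the groups overlapped, with 17.6 and 7.81 RPKM in the controls and 6.79 and 9.53 at high temperature for the summed reads. The log2 fold change of the sum was -0.56 (standard error 0.27, unadjusted p = 0.0720, adjusted p = 0.737, edgeR on sums per gene).

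On the TMM scale, the model LOC_Os04g08034.3 of EMF2a gave the most even difference among the PRC2 models. It had 122 and 51 reads in the controls and 30 and 30 at high temperature, or 8.08 and 8.44 TMM CPM against 4.33 and 4.19. The groups were apart on the TMM scale and by column totals alike, but the replicates of both groups lay close together only on the TMM scale. By column totals this model had 10.6 and 6.36 CPM in the controls and 3.84 and 4.69 at high temperature. The log2 fold change was -0.95 (standard error 0.30), with an unadjusted p of 0.0130 and an adjusted p of 0.599 (edgeR), so it did not pass the threshold over all transcripts. It ran from -0.92 to -0.99 when each library was left out in turn. This model held 20.8% and 28.0% of the reads of EMF2a in the controls and 19.5% and 16.9% at high temperature. The Clopper-Pearson 95% intervals of all 4 shares overlapped (17.6% to 24.3%, 21.6% to 35.1%, 13.5% to 26.6% and 11.7% to 23.3%), and the difference between the shares was not tested.

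EMF2a lay below EMF2b in each library by the most abundant model, with a log2 ratio of -1.73 and -2.21 in the controls and -2.28 and -2.74 at high temperature. The difference between the temperatures was -0.55 (exact permutation test, two-sided, p = 0.333, the smallest possible). With the models of EMF2a summed, the log2 ratio was 0.34 and -0.19 in the controls and -0.44 and -0.70 at high temperature, so which of the paralogs is the more abundant depends on how models are counted.

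Among the 13 models as a whole, 10 had a log2 fold change below 0 (49.8% of all tested transcripts), 3 were above 0 (50.2%) and the median was -0.37, against 0.00 for all tested transcripts. With unadjusted p-values under 0.05, 2 were lower at high temperature (2.79% of all) and 0 higher (4.15% of all). Both heated libraries lay below both controls for 5 of the 13 models (17.7% of all), of which 4 belong to EMF2a. They lay above both controls for 1 (19.1% of all). By column totals the counts were 1 (9.08% of all), LOC_Os04g08034.3, and 0 (12.6% of all). The 6 models of EMF2a belong to 1 gene and the 3 of FIE2 to another, so these counts are not counts of independent genes. The FIE2 models are among the 10 below 0, and without control replicate 1 they were at 0.26, 0.03 and 0.34. The models of the other genes kept their direction in that fit.

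The subunit classes kept similar proportions in 3 of the libraries. By the most abundant model of each gene, FIE1 and FIE2 together made up 37.1% of the RPKM of the 6 genes in control replicate 1, and 14.6% to 16.6% in the other libraries. CLF and iEZ1 made up 36.2% in control replicate 1 and 49.9% to 53.6% in the others. EMF2a and EMF2b made up 26.8% and 31.6% to 33.5%. The WD repeat class thus had the larger share in control replicate 1, more by FIE1 than by FIE2. FIE1 had 15.1 RPKM there against 1.24 to 2.15 in the others, and FIE2 9.91 against 3.52 to 5.72. Shares of a whole are tied, so a larger share of a class lowers those of the others. These shares leave out the reads of the other models of FIE2 and EMF2a. With reads summed per gene, the mean of FIE2 was 15.9 RPKM in place of 5.77, and that of EMF2a was 10.4 in place of 2.58. CLF and iEZ1 have 1 model each, so their share is lower when those reads are counted.

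Other lists of genes, chosen by words in the descriptions and not by a known link to PRC2, showed no called difference. Among 8 models listed as Polycomb partners, all tested, the median log2 fold change was 0.04, and 0 had an unadjusted p under 0.05. LHP1 (LOC_Os10g17770.1), a chromo domain protein whose Arabidopsis homolog binds the mark that PRC2 writes, had 15.6 and 12.4 TMM CPM in the controls and 15.1 and 13.4 at high temperature, and its log2 fold change was 0.02. The enhancer of polycomb model LOC_Os08g25130.1 had the lowest value of the list, -0.44, and the fibronectin type III model LOC_Os05g05310.1 the highest, 0.43. LOC_Os12g34850.1, also a fibronectin type III protein, was at 0.34 and LOC_Os05g05310.2 at -0.09.

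Of the 42 models of other SET domain and histone-lysine methyltransferase genes, 33 were tested. Their median was -0.07, with 13 above and 20 below 0, and 0 had an unadjusted p under 0.05. The extremes were the histone-lysine methyltransferase model LOC_Os01g70220.1 (-0.79) and the SET domain model LOC_Os12g13460.1 (-0.63) on the low side, and LOC_Os08g10470.2 (0.43), described as ASHR2, and LOC_Os04g45990.1 (0.31) on the high side. LOC_Os12g13460.1 had 15.96 and 8.44 TMM CPM in the controls and 7.36 and 8.66 at high temperature, and was at -0.08 without control replicate 1. All 16 models of histone demethylases were tested, with a median of 0.12 and 0 unadjusted p-values under 0.05. They ran from -0.49 for LOC_Os01g56640.1, with LOC_Os01g56640.3 of the same gene at -0.20, to 0.43 for LOC_Os02g58210.1 and 0.47 for LOC_Os05g23670.1.

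Type I MADS-box genes include targets of PRC2 in endosperm, as known from Arabidopsis, and only 4 of their 33 models passed the filter on low counts. LOC_Os04g31804.1, listed as OsMADS64, held 73 and 60 reads in the controls and 118 and 90 at high temperature. It had 4.83 and 9.93 TMM CPM in the controls and 17.0 and 12.6 at high temperature, with both heated libraries above both controls. Its log2 fold change of 1.04 (standard error 0.39, unadjusted p = 0.0289, adjusted p = 0.686, edgeR) did not pass the threshold and was 0.57 without control replicate 1. The OsMADS69 models LOC_Os08g20440.1 and LOC_Os08g20440.2 held 4 to 19 reads per library, with log2 fold changes of -0.16 and 0.60 and standard errors of 0.50 and 0.57.

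Among the 258 models of other WD repeat genes, the family to which FIE belongs, 225 were tested, with a median of -0.03. With unadjusted p-values under 0.05, 9 were higher (4.15% of all tested transcripts) and 6 lower (2.79% of all) at high temperature, shares near those over all transcripts, and 0 passed the adjusted threshold. LOC_Os02g33630.1 (log2 fold change 1.40) and LOC_Os02g44380.2 (1.24) were the highest. LOC_Os07g22534.1 (-1.26) and LOC_Os02g47180.2 (-1.02) were the lowest, and the latter was at -0.06 without control replicate 1. No tested model of these lists had a log2 fold change as low as that of FIE1.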

How the data were processed

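The authors deposited 1 table for the 4 libraries, with a length and whole-number counts for each transcript model. Per the study's methods the counts are of reads that mapped to 1 place and overlapped exons. The aligner, genome build and annotation release are not given in the sources used here. NA cells were read as 0. The columns headed RPKM were not used, because that of control replicate 1 multiplies by the length. Columns of counts left unused numbered 0.

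RPKM was computed from counts, lengths and column totals. Temperatures were compared by the quasi-likelihood test of edgeR 4.0.16 (R 4.3.3) with TMM scaling and without a block, over the 27358 transcripts that reached 1 CPM in 2 or more libraries, with Benjamini-Hochberg adjustment over all of them and a threshold of 0.05. The common dispersion was 0.0746. Standard errors are the log2 fold change over the square root of F. DESeq2 1.42.0, upper quartile scaling, other filters, sums per gene, 1 transcript per gene, the 2 most abundant transcripts removed, a replicate block and each library left out were alternatives. The crossed block and column totals were added after the data were seen. Python 3.11.15 was used for tables, and the scripts were tested on simulated data.

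The members and lists were chosen with earlier results of these data known. All member models are named, and from each list at most the 2 largest rises and falls; LHP1 was named after its value was seen. In the lists, CHROMO and WD were read as whole words. No sequences or positions are given, since 0 gene IDs matched the reference table.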

Additional observations from a re-analysis of the deposited data

How the results depend on the processing

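The number of transcripts past the adjusted threshold depended on the processing: it was 0 in the reported edgeR test, 365 without the filter on low counts, 58 with DESeq2, 33 with column totals only, 828 with a crossed replicate block, and 0 to 345 when each library was left out in turn. It stayed at 0 in the other alternatives that kept every library, the replicate block included. A fit with a library left out has 1 library in a group, so its p-values and its count of calls are not given. The methods do not say whether the replicate numbers pair the samples. The deviations of same-numbered libraries correlated at -0.36 over transcripts, which cannot settle it, since each temperature gives only 1 difference between replicates. The replicate block gave FIE1 a log2 fold change of -1.75 with an adjusted p of 0.99994 (edgeR). Among the fits that kept every library, FIE1 was called with -2.14 without the filter on low counts and -1.91 with the crossed block. FIE1 ran from -2.79 to -0.57 over the libraries left out. It was not tested at a minimum of 5 CPM, which it reached in 1 library. The causes were not tested.

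Of 164 alternative log2 fold changes of the 13 models, 154 kept their direction and 10 reversed, none of them past the threshold in either fit. LOC_Os08g04270.3 of FIE2 was at 0.017 with the replicate block. The other reversals left out a library. They gave ranges of -0.43 to 0.26 for LOC_Os08g04270.1, -0.66 to 0.028 for LOC_Os08g04270.2, -0.29 to 0.34 for LOC_Os08g04270.3, -0.36 to 0.10 for iEZ1, -0.12 to 0.31 for LOC_Os04g08034.6 of EMF2a and -0.13 to 0.31 for EMF2b. Mean RPKM moved to 15.9 for FIE2 and 10.4 for EMF2a with reads summed per gene. Each temperature had 2 libraries, and FIE1 and the EMF2a models held 11 to 51 reads per library outside control replicate 1, so counting error is large for these models.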
